A study of Mus musculus with 6 samples.

Results

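Crypt base columnar cells are the stem cells at the bottom of the small intestinal crypt, and 10 genes used as their markers were followed here through 6 mouse RNA sequencing libraries. The 10 genes were taken by symbol from a fixed list that was chosen with earlier results of these data known. They were *Lgr5*, *Olfm4*, *Ascl2*, *Smoc2*, *Slc14a1*, *Rgmb*, *Igfbp4*, *Aqp4*, *Cdca7* and *Slc12a2*, and each matched 1 of the 56884 genes in the count files. All libraries came from organoids grown from the small intestine of mice that carried Ythdf2fl/fl together with Villin-CreERT2 and Lgr5-EGFP-IRES-CreERT2, and the controls carried all of these alleles too. Villin drives expression in the intestinal epithelium, and CreERT2 is a recombinase that 4-hydroxytamoxifen (4-OHT) switches on. The cultures received 0.5 µM 4-OHT or ethanol (EtOH) as the vehicle, and their Lgr5-GFP+ cells were sorted at day 4 or day 6. There were 2 libraries of each treatment at day 6 and 1 of each at day 4. The labels do not give the age, sex or number of mice, or whether replicates were separate cultures, so p-values measure the spread between these libraries, which may be technical.

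Crypt base columnar cells divide steadily and replace the whole epithelium. They are kept by Wnt signals, which R-spondins strengthen through the receptor Lgr5, and by Notch signals from neighbouring Paneth cells, while BMP signals from further up the crypt push cells to differentiate. The marker genes cover different parts of this biology. *Lgr5*, *Rgmb*, *Smoc2* and *Igfbp4* encode receptors or secreted modulators of signalling. *Ascl2* encodes a transcription factor of the stem cell programme, and *Olfm4* a secreted glycoprotein that depends on Notch. *Slc14a1*, *Aqp4* and *Slc12a2* encode membrane transporters, and *Cdca7* encodes a nuclear protein linked to the cell cycle.

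The libraries held 14345379 to 21461835 gene counts. *Ythdf2*, the floxed gene, checks the labels. It stood at 76.2 CPM with EtOH and 168 CPM with 4-OHT at day 4. At day 6 it stood at 82.9 and 76.1 CPM with EtOH and at 208 and 205 CPM with 4-OHT, so that its counts were higher, not lower, in every library labelled 4-OHT. Counts per gene do not show whether the floxed part was present. Libraries are therefore named by their labels, and directions are those of the libraries labelled 4-OHT relative to EtOH. CPM are counts scaled to a common library total, with libraries aligned by the trimmed mean of M-values (TMM).

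The marker label was compared with the levels first. Per kb of exon length, 9 of the 10 genes lay at or above the 70.5th percentile of all genes abundant enough to test, in every library. *Slc14a1* was the exception, at the 4.25th to 33.6th percentile with 9 to 148 counts per library. *Olfm4* was the most abundant marker per length in all 6 libraries, with 290 to 1109 CPM per kb. *Slc12a2* was second in all 6 libraries, with 97.7 to 166 CPM per kb. *Smoc2* (41.6 to 61.5 CPM per kb), *Igfbp4* (33.4 to 64.9), *Cdca7* (38.3 to 60.0), *Aqp4* (29.3 to 45.2), *Lgr5* (20.4 to 35.96), *Ascl2* (12.8 to 31.9) and *Rgmb* (9.50 to 18.6) followed in order of their mean over the 6 libraries. Neighbours within that run overlapped in range, and their order held in 3 to 5 of the 6 libraries, so these 7 genes formed a continuous middle range. The order also depends on the length used. With the longest transcript in place of all exons, *Cdca7* and *Lgr5* came 4th and 5th, and *Igfbp4* and *Aqp4* 6th and 7th. *Slc14a1* was lowest in all 6 libraries, with 0.118 to 1.93 CPM per kb.

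**Figure D1:**
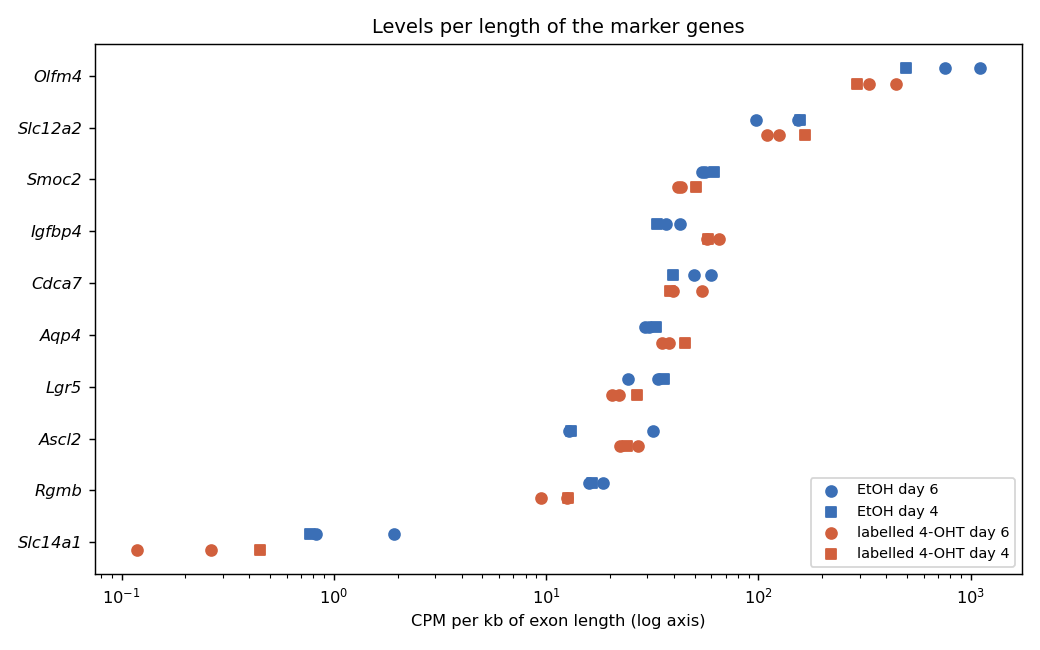
Level of each marker gene in CPM per kb of exon length on a log axis, 1 point per library (blue EtOH, orange labelled 4-OHT, circles day 6, squares day 4). *Olfm4*, *Slc12a2* and *Slc14a1* stand apart from the other 7 genes, whose ranges run into each other between 9.50 and 64.9 CPM per kb.

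At day 6 the markers did not move as a block. *Olfm4* and *Slc14a1* were lower in the libraries labelled 4-OHT, with log2 fold changes of −1.27 and −2.82, and these were the 2 of 10 members that passed the threshold. Genes passed where the quasi-likelihood test of edgeR gave a Benjamini-Hochberg adjusted p below 0.05 over the 14066 genes tested. Over all genes tested, 0.235% passed as lower, 2.27% as higher and 2.51% in either direction. Of the 8 members that did not pass, 5 had a negative and 3 a positive log2 fold change, and 51.8% of all genes tested had a negative one. The median log2 fold change was −0.30 over the 10 members and −0.01 over all genes tested. An unadjusted p under 0.05 was found for 6 members, against 10.3% of all genes. Since the members were chosen with earlier results of these data known, these shares describe the list and are no test of it. In bulk libraries, fewer cells of a type and less RNA per cell cannot be told apart.

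Whether the replicates of the treatments overlapped was read for each member. Both day 6 libraries labelled 4-OHT lay below both EtOH libraries for 5 members (*Lgr5*, *Olfm4*, *Smoc2*, *Slc14a1* and *Rgmb*), against 18.4% of all genes tested. Both lay above for *Igfbp4* and *Aqp4*, against 20.5% of all genes. *Ascl2*, *Cdca7* and *Slc12a2* overlapped. With day 4 added, all 3 libraries labelled 4-OHT lay below all 3 EtOH libraries for 4 members (*Olfm4*, *Smoc2*, *Slc14a1* and *Rgmb*), against 9.11% of all genes, and above for *Igfbp4* and *Aqp4*, against 11.3%.

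**Figure D2:**
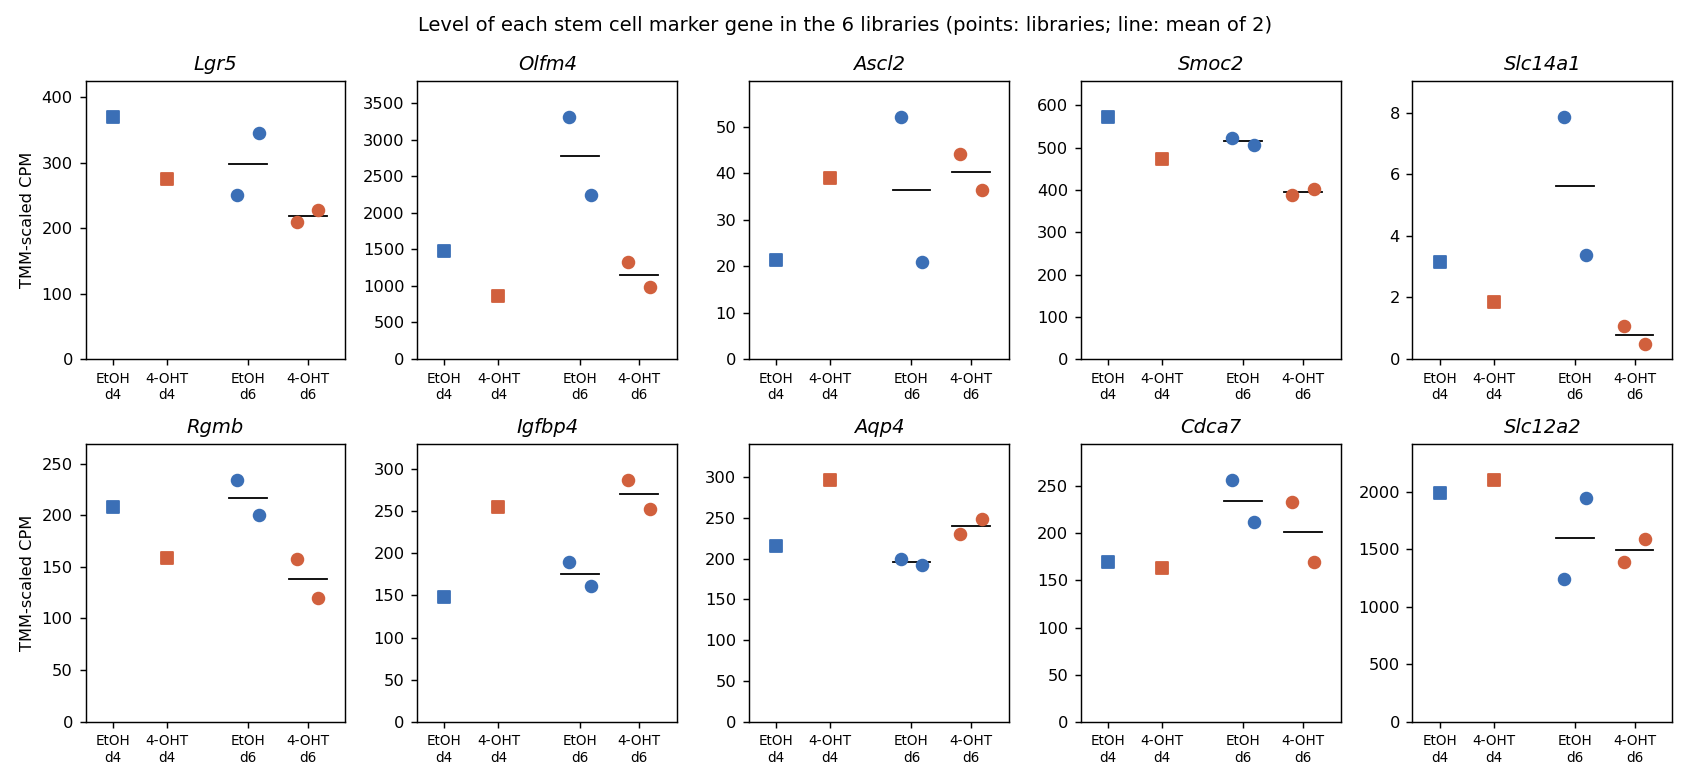
TMM-scaled CPM of each marker gene by treatment and day (d4, d6), 1 point per library (blue EtOH, orange labelled 4-OHT, circles day 6, squares day 4), with a line at the mean of the 2 day 6 libraries and every axis starting at 0. *Olfm4*, *Smoc2*, *Slc14a1* and *Rgmb* lie lower and *Igfbp4* and *Aqp4* higher in all 3 libraries labelled 4-OHT, while *Ascl2* has 1 EtOH library above and 2 below them.

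*Lgr5* (ENSMUSG00000020140; chromosome 10, 115286216 to 115423685, minus strand, GRCm39) encodes the R-spondin receptor, and the sort itself selected on the reporter at this locus. The gene stood at 250.3 and 345 CPM in the day 6 EtOH libraries, 209 and 227 CPM in those labelled 4-OHT, and 369 (EtOH) and 274 CPM (4-OHT) at day 4. The groups did not overlap within a day, but EtOH replicate 1 of day 6 lay below the day 4 library labelled 4-OHT. The log2 fold change at day 6 was −0.45 (95% interval −0.86 to −0.04) with an adjusted p of 0.413, which did not pass. Of the exon bases of *Lgr5*, 7.3% overlap *Gm66839* on the opposite strand, and the strand setting of the counting is not given in the sources used here.

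*Rgmb* (ENSMUSG00000048027; chromosome 17, 16022655 to 16051513, minus strand) encodes a membrane-anchored BMP co-receptor. It stood at 234 and 200.05 CPM with EtOH and at 158 and 120 CPM in the day 6 libraries labelled 4-OHT. At day 4 it stood at 208 (EtOH) and 159 CPM (4-OHT), so that the 3 EtOH libraries lay between 200.05 and 234 CPM and the others between 120 and 159 CPM. The day 6 log2 fold change of −0.65 (95% interval −1.06 to −0.24) did not pass, with an adjusted p of 0.129 (0.0474 with DESeq2).

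*Smoc2* (ENSMUSG00000023886; chromosome 17, 14499735 to 14625074, plus strand) encodes a secreted calcium-binding matrix protein, and it had the closest replicates of the 10 genes in both day 6 groups. Of its exon bases, 2.64% overlap *4930474M22Rik* on the opposite strand. *Smoc2* stood at 523 and 507 CPM with EtOH and at 387 and 402 CPM in the day 6 libraries labelled 4-OHT, and at 572 (EtOH) and 474 CPM (4-OHT) at day 4. The day 6 log2 fold change was −0.39 (95% interval −0.74 to −0.03), and the adjusted p of 0.417 did not pass. *Igfbp4* (ENSMUSG00000017493; chromosome 11, 98932064 to 98945218, plus strand) encodes a secreted binding protein of insulin-like growth factors and lay on the other side. It stood at 189.5 and 162 CPM with EtOH and at 287 and 253 CPM in the day 6 libraries labelled 4-OHT, and at 148 (EtOH) and 255 CPM (4-OHT) at day 4. Every library labelled 4-OHT was above every EtOH library. The day 6 log2 fold change of 0.62 (95% interval 0.25 to 0.99) had an adjusted p of 0.11 and did not pass (0.0355 with DESeq2).

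*Ascl2* (ENSMUSG00000009248; chromosome 7, 142520564 to 142523006, minus strand) encodes a basic helix-loop-helix factor that Wnt signals activate, and its EtOH replicates disagreed most. It stood at 52.0 and 20.9 CPM with EtOH and at 44.1 and 36.5 CPM in the day 6 libraries labelled 4-OHT, and at 21.3 (EtOH) and 39.05 CPM (4-OHT) at day 4. EtOH replicate 1 of day 6 was thus above, and the other 2 EtOH libraries below, all libraries labelled 4-OHT. The day 6 log2 fold change was 0.14 (95% interval −0.62 to 0.90, adjusted p 0.961). It became 0.95 without EtOH replicate 1 and −0.37 without EtOH replicate 2, so the direction rested on which EtOH library was kept. Without 4-OHT replicate 1 it was −0.01.

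*Olfm4* (ENSMUSG00000022026; chromosome 14, 80221521 to 80260579, plus strand) encodes the secreted glycoprotein olfactomedin-4. At day 6, EtOH gave 62398 and 38710 counts and 4-OHT gave 28373 and 18380, while day 4 gave 28844 (EtOH) and 12723 (4-OHT). In CPM, the day 6 EtOH libraries stood at 3308 and 2247, those labelled 4-OHT at 1322 and 985, and the day 4 libraries at 1482 (EtOH) and 865 (4-OHT). The day 4 EtOH library was thus nearer to the day 6 libraries labelled 4-OHT than to those of its own treatment. The day 6 group means were 2777 ± 751 and 1154 ± 238 CPM (SD, n = 2 each). The log2 fold change was −1.27 (SE 0.26, 95% interval −1.84 to −0.70) and an adjusted p of 0.0312. The value was −0.96 (adjusted p 0.211) without EtOH replicate 1 and −1.07 (adjusted p 0.0997) without 4-OHT replicate 2, where 1 library stands alone in a group and is assumed to vary like the others. Of the exon bases of *Olfm4*, 5.13% overlap *Gm6999* on the same strand.

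The upstream sequences of 3 members are shown because these passed the threshold over both days, *Olfm4* and *Rgmb* as lower and *Igfbp4* as higher. Each is the 250 bases before a RefSeq transcription start, 5′ to 3′ on the strand of the gene. The RefSeq table (GRCm38.p6) held 5 of the 10 members (*Olfm4*, *Rgmb*, *Igfbp4*, *Ascl2* and *Cdca7*), and each whole table entry matched 1 place in GRCm39, whose positions are given. For *Rgmb*, which has several starts in the table, the start nearest to that of the gene annotation is shown. The *Olfm4* start lies 16221 bases inside the annotated gene, which has a longer transcript. Capitals mark matches on either strand to CTTTGAT (a TCF/LEF core, the Wnt effectors), TGGGAA (an RBPJ core, the Notch effector) or CAGCTG (an E-box of Ascl2-type factors).
*Olfm4*, chr14:80237492-80237741, plus strand: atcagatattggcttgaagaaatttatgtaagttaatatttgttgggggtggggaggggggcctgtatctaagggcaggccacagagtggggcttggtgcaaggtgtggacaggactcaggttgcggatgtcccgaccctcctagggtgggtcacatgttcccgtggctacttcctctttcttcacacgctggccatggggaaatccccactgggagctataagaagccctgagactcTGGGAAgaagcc
*Rgmb*, chr17:16051509-16051758, minus strand: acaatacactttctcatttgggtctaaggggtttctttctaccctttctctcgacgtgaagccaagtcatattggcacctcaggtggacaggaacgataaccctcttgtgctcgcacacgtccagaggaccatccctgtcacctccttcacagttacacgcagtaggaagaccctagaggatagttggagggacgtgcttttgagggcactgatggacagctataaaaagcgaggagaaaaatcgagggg
*Igfbp4*, chr11:98931820-98932069, plus strand: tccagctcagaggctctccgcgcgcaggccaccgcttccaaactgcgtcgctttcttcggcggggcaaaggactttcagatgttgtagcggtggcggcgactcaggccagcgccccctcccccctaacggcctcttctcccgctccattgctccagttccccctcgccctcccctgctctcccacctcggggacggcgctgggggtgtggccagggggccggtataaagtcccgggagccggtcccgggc

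The single match among these 3 windows was an RBPJ core that began 12 bases before the *Olfm4* start. The *Cdca7* window also held 1 RBPJ core, 227 bases before the start, and the *Ascl2* window held no match. Of all 32851 promoter windows of this length, 3.21% held the TCF/LEF core, 21.6% the RBPJ core and 13% the E-box. A match describes the letters alone, and no match says only that these letters are not in the window.

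*Cdca7* (ENSMUSG00000055612; chromosome 2, 72306341 to 72317240, plus strand) encodes a nuclear protein of dividing cells. It stood at 257 and 212 CPM with EtOH and at 233 and 170 CPM in the day 6 libraries labelled 4-OHT, and at 170 (EtOH) and 164 CPM (4-OHT) at day 4. The day 6 ranges overlapped, and the log2 fold change was −0.22 (95% interval −0.65 to 0.21, adjusted p 0.817).

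*Slc14a1* (ENSMUSG00000059336; chromosome 18, 78143306 to 78185343, minus strand) encodes a urea transporter. It was counted 148 and 58 times with EtOH and 23 and 9 times with 4-OHT at day 6, and 61 (EtOH) and 27 times (4-OHT) at day 4. These were 7.85 and 3.37 CPM with EtOH, 1.07 and 0.483 CPM with 4-OHT, and 3.13 and 1.84 CPM at day 4. Every library labelled 4-OHT was below every EtOH library, and EtOH replicate 1 of day 6 stood well above the rest. The day 6 log2 fold change was −2.82 (SE 0.55, 95% interval −4.06 to −1.59) with an adjusted p of 0.0266. Without EtOH replicate 1 it was −2.08 with an adjusted p of 0.212. Of its exon bases, 5.38% overlap *Gm58595* on the opposite strand.

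*Aqp4* (ENSMUSG00000024411; chromosome 18, 15522451 to 15544039, minus strand) encodes a water channel. It stood at 199.7 and 192 CPM with EtOH and at 231 and 248 CPM in the day 6 libraries labelled 4-OHT, and at 215 (EtOH) and 296 CPM (4-OHT) at day 4. All 3 libraries labelled 4-OHT were above all EtOH libraries. The day 6 log2 fold change of 0.29 (95% interval −0.06 to 0.63, adjusted p 0.609) did not pass. *Slc12a2* (ENSMUSG00000024597; chromosome 18, 58011164 to 58080812, plus strand) encodes a sodium-potassium-chloride cotransporter. It stood at 1242 and 1950.3 CPM with EtOH and at 1392 and 1589.9 CPM in the day 6 libraries labelled 4-OHT, and at 1989 (EtOH) and 2103 CPM (4-OHT) at day 4. The libraries labelled 4-OHT of day 6 lay between the EtOH replicates. The log2 fold change was −0.10 (95% interval −0.64 to 0.44, adjusted p 0.96), and it became 0.26 without EtOH replicate 2.

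Over both days, 3 libraries labelled 4-OHT were set against 3 EtOH libraries with day as a term, a fit that shares the 4 day 6 libraries with the comparison above. It called 4 of the 10 members, where 4.39% of 14060 genes passed in either direction, 0.718% lower and 3.67% higher. *Olfm4* (log2 fold change −1.10, adjusted p 0.0119), *Slc14a1* (−2.13, adjusted p 0.0497) and *Rgmb* (−0.56, adjusted p 0.0473) were lower by the edgeR quasi-likelihood test. *Igfbp4* was higher (0.68, 95% interval 0.42 to 0.93, adjusted p 0.00856). *Lgr5* (−0.44, adjusted p 0.11), *Smoc2* (−0.35, adjusted p 0.113) and *Aqp4* (0.35, adjusted p 0.105) missed the threshold, although DESeq2 called *Lgr5* (adjusted p 0.0469) and *Smoc2* (adjusted p 0.0297). *Ascl2* (0.38), *Cdca7* (−0.16) and *Slc12a2* (−0.04) had intervals that included 0.

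Each of these 4 calls was lost when some single library was left out. The count of members called was 1 without replicate 1 and 1 without replicate 2 of the day 6 libraries labelled 4-OHT, and 2 without either day 4 library. *Olfm4* was lost without 4-OHT replicate 2 of day 6 (adjusted p 0.0645). *Igfbp4* was lost without 4-OHT replicate 1 of day 6 (adjusted p 0.0528) and without either day 4 library (0.103 and 0.105). With a day term, leaving out 1 day 4 library leaves the other to that term, so these fits repeat the day 6 comparison. *Slc14a1* was lost without any of EtOH replicate 1 (0.121), 4-OHT replicate 1 (0.173) and 4-OHT replicate 2 (0.207) of day 6. *Rgmb* held only when EtOH replicate 2 of day 6 was the library left out, with adjusted p of 0.0781 to 0.192 otherwise. With edgeR's legacy quasi-likelihood, *Rgmb* (adjusted p 0.0571) and *Slc14a1* (adjusted p 0.0702) were lost, and without the day term *Igfbp4* alone passed (adjusted p 0.0252). *Ascl2* passed once EtOH replicate 1 of day 6 was left out (log2 fold change 0.91, adjusted p 0.0104), and so did *Lgr5* (−0.57, adjusted p 0.019).

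**Figure D3:**
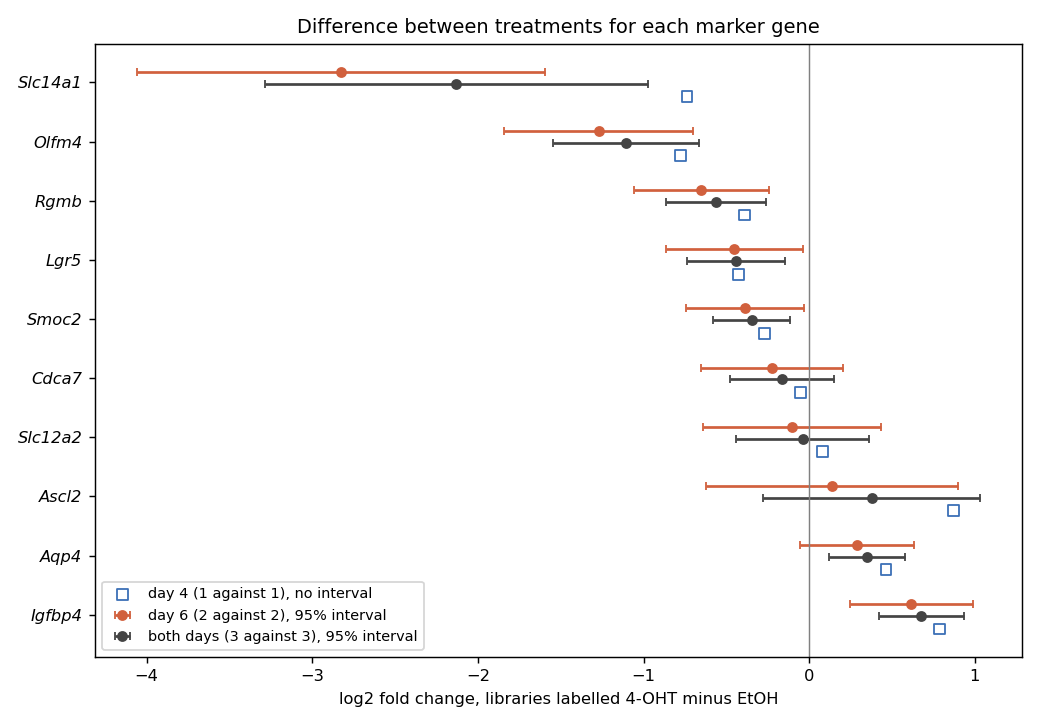
Log2 fold change of each marker gene, libraries labelled 4-OHT minus EtOH, at day 6 (orange, 2 against 2), over both days (black, 3 against 3) and at day 4 (open squares, 1 against 1), where bars are 95% intervals of the edgeR fits and day 4 has none. The genes run from *Slc14a1* (−2.82 at day 6) to *Igfbp4* (0.62), with the day 4 squares on the same side of 0 for all but *Slc12a2*.

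At day 4, with 1 library per treatment, values compare those libraries and carry no test. None of the members reached a 2-fold difference, which 2.32% of the genes tested at day 6 reached as lower and 5.79% as higher. *Olfm4* was at 0.584 of its EtOH level (exact 95% interval 0.572 to 0.596, which like the others covers counting error only), *Slc14a1* at 0.586 (0.358 to 0.936) and *Lgr5* at 0.744 (0.715 to 0.773). *Rgmb* was at 0.763 and *Smoc2* at 0.828 of the EtOH level. *Ascl2* was at 1.84 (1.61 to 2.09), *Igfbp4* at 1.73 (1.64 to 1.81) and *Aqp4* at 1.38 of the EtOH level, and *Cdca7* (0.965) and *Slc12a2* (1.06) were close to it. The sign was that of day 6 for 9 of 10 members, and for 67.8% of all genes tested.

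Whether the treatment difference itself differed between the days was tested with an interaction term. None of the 10 members passed, and no gene of 14060 did (0%). An unadjusted p under 0.05 was reached by 0 members and 228 genes (1.62%), and DESeq2 called 0 members and 6 genes. The difference was negative for all 10 members (median −0.18) and for 50.2% of all genes (median −0.0009). All of these values rest on the same 1 library per treatment at day 4. The widest difference was that of *Slc14a1*, −2.05 on the log2 scale (day 6 minus day 4, 95% interval −4.20 to 0.10). The interval for *Lgr5* was −0.74 to 0.70 around −0.02, so a change of the *Lgr5* difference within that range remains compatible with these libraries. It is not a limit of detection, since no gene passed at any size of difference.

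Between the days, with treatment as a term, 0 of 10 members passed, where 0.562% of all genes did. *Olfm4* was at 0.65 (95% interval 0.18 to 1.13, adjusted p 0.241) on the log2 scale in day 6 relative to day 4 libraries, *Cdca7* at 0.38 (adjusted p 0.33), *Slc12a2* at −0.41 (adjusted p 0.41) and *Lgr5* at −0.32 (adjusted p 0.377). An unadjusted p under 0.05 was reached by 3 members and by 12.6% of all genes, and DESeq2 called 318 genes, 1 of them a member, *Olfm4* (adjusted p 0.047). The library names that the labels give fall into 1 run of numbers for day 6 and another for day 4, and what else may go with these names cannot be told apart from day. The day 4 libraries also had counts for more genes, 26521 (EtOH) and 24195 (4-OHT), against 19522 to 20622 at day 6. Entries without a feature were 6.19% (EtOH) and 6.70% (4-OHT) of all entries at day 4, against 2.63% to 3.76% at day 6.

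The agreement of the day 6 replicates varied among the members. Between the day 6 EtOH replicates the median absolute log2 difference was 0.37 over the 10 members and 0.29 over all genes tested, and between those labelled 4-OHT it was 0.23 and 0.19. *Ascl2* (replicate 2 minus 1, −1.31) and *Slc14a1* (−1.19) differed more between the EtOH replicates than 96.3% and 95.4% of genes. *Smoc2* (−0.04) and *Aqp4* (−0.06) differed less than most genes. *Lgr5* (0.46) and *Slc12a2* (0.65) were higher, and *Olfm4* (−0.56) lower, in EtOH replicate 2. In all, 8 of the 10 members were lower in EtOH replicate 2 than in replicate 1, and 6 of 10 were lower in replicate 2 of the libraries labelled 4-OHT.

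**Figure D4:**
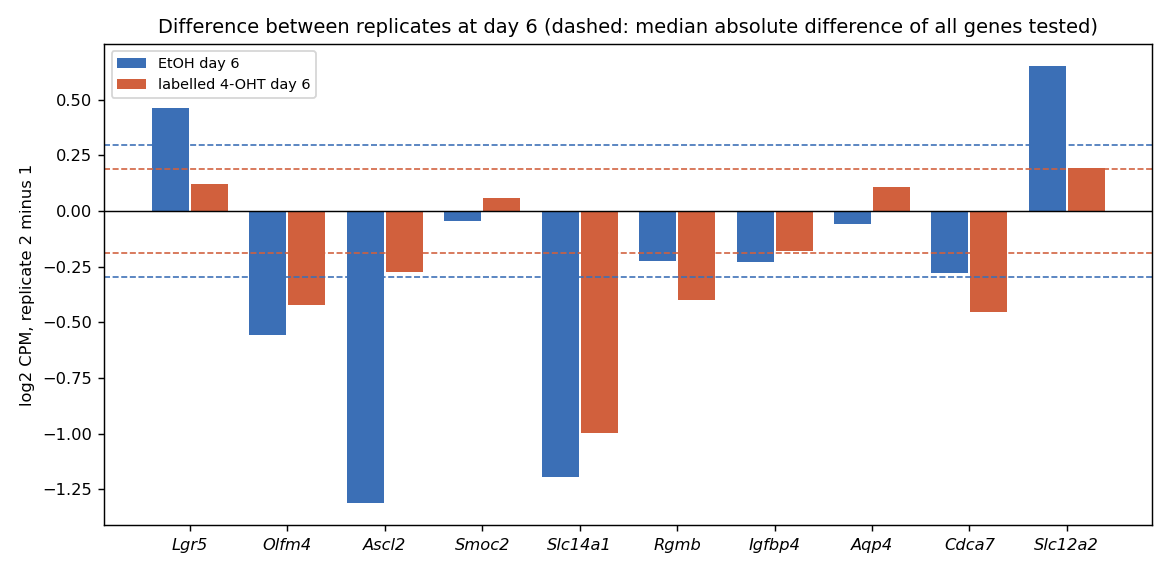
Difference in log2 CPM between replicate 2 and replicate 1 at day 6 for each marker gene, with bars for EtOH (blue) and labelled 4-OHT (orange) and dashed lines at plus and minus the median absolute difference of all genes tested (0.29 and 0.19). *Ascl2* and *Slc14a1* have the longest EtOH bars (−1.31 and −1.19), and *Smoc2* and *Aqp4* stay inside the dashed lines in both groups.

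Ratios within a library need no scaling between libraries, and *Lgr5* was used as the denominator, per kb of exon length. *Igfbp4* was at 0.929 to 1.76 times *Lgr5* with EtOH and at 2.16 to 3.19 times in the libraries labelled 4-OHT. *Aqp4* was at 0.871 to 1.25 times with EtOH and at 1.69 to 1.73 times with 4-OHT, and *Slc12a2* at 4.01 to 4.57 and 5.38 to 6.19 times. These 3 members did not overlap between treatments and were higher with 4-OHT, as was true of 28.2% of all genes tested. *Slc14a1* was the 1 member whose ratio was lower in all libraries labelled 4-OHT (0.00535 to 0.0169, against 0.0214 to 0.0790 with EtOH), which 0.675% of genes showed. The ratio of *Smoc2* to *Lgr5* was 1.62 to 2.303 with EtOH and 1.90 to 2.04 with 4-OHT and overlapped. The ratio of *Olfm4* to *Lgr5* ranged from 13.8 to 45.5 with EtOH and from 10.8 to 21.8 with 4-OHT and overlapped.

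The likeness of patterns was measured as the root mean square difference of log2 CPM over the 6 libraries, after each gene was centred on its own mean. Among the 45 pairs of members, *Lgr5* and *Smoc2* were closest, at 0.17. Among 9212 candidate protein-coding genes averaging 10 CPM or more, those nearest to *Lgr5* were *Emp2*, *Grk3* and *Wwp1*, each at 0.07, against a median of 0.35. Those nearest to *Olfm4* were *Pkp1* (0.18), *Aldh1a7* (0.21) and *Cdo1* (0.25), against a median of 0.68. *Aldh1a7*, for example, stood at 106 and 62.6 CPM with EtOH and 45.6 and 36.2 CPM with 4-OHT at day 6, and at 64.1 and 25.5 CPM at day 4. These distances are descriptions over 6 libraries that also share treatment and day.

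Other genes of the stem cell state and its pathways are given beside all genes tested. These lists were chosen with earlier results of these data known, so the shares describe them and are no test of them. Over all genes tested at day 6, 2.51% passed in either direction and 51.8% had a negative log2 fold change. Lists of 10 to 20 genes can hold few or no calls at that share, so 0 calls in a list says little. Of 20 further crypt base columnar stem cell genes, 0 passed at day 6 by edgeR or DESeq2, with 2 at an unadjusted p under 0.05, 13 with a negative log2 fold change and a median of −0.10. Among them the receptor gene *Lgr4* (0.04), the surface marker *Prom1* (0.02) and the ephrin receptor gene *Ephb2* (0.00), chosen after their values were seen, lay near 0. The list ran from *Fstl1* (−1.15, at 0.90 CPM with EtOH and 0.40 CPM with 4-OHT) to *Tnfrsf19* (0.41), also named after their values were seen. *Axin2*, a Wnt target (−0.47, adjusted p 0.471), and *Kcnq1*, a potassium channel gene (−0.38, adjusted p 0.431), were the 2 at an unadjusted p under 0.05, named after their values were seen. Of 16 Wnt receptor and effector genes tested, 0 passed by edgeR or DESeq2 at day 6, 1 had an unadjusted p under 0.05, and the median was 0.00. That 1 was *Ccnd1*, a cell cycle gene also chosen after its values were seen (0.40 at day 6). It passed as higher over both days by edgeR (adjusted p 0.0485), against 3.67% of all genes. Of 10 Notch genes tested, 0 passed by either tool and 0 had an unadjusted p under 0.05. Their log2 fold changes were negative for 6 and positive for 4, with a median of −0.19. The Notch targets *Hes1* (−0.26) and *Nrarp* (−0.70, adjusted p 0.523) are given after their values were seen. Of 15 proliferation genes, 0 passed by either tool and 0 had an unadjusted p under 0.05, while 14 had a negative log2 fold change (median −0.19). The list of 6 reserve or facultative stem cell genes holds markers of reserve cells (*Bmi1*, *Hopx*, *Tert*) and genes known from the regenerating epithelium (*Clu*, *Ly6a*, *Anxa1*). Of these 6 genes, 3 passed and were higher, against 2.27% of all genes tested. These were *Ly6a* (11.5 ± 2.34 to 44.7 ± 7.19 CPM, SD, n = 2 each, adjusted p 0.00205), *Anxa1* (5.99 ± 1.13 to 17.7 ± 0.988 CPM, SD, n = 2 each, adjusted p 0.012) and *Clu* (13.04 ± 1.05 to 26.4 ± 2.38 CPM, SD, n = 2 each, adjusted p 0.0403), whereas *Bmi1* (−0.16), *Hopx* (−0.13) and *Tert* (0.37) did not pass.

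Markers of other cell types are given beside the stem cell values. These lists too were chosen with earlier results of these data known. Of their sums, only those of the enterocyte and tuft cell lists did not overlap between the treatments. The summed level of the 10 stem cell markers was 5177 to 6262 CPM in the 3 EtOH libraries and 4033 to 4632 CPM in the 3 labelled 4-OHT. *Olfm4* carried this gap. Without it, in a sum added after the data were seen, the other 9 members came to 2954 to 3694 CPM with EtOH and 2941 to 3766 CPM with 4-OHT, which overlapped. *Slc12a2* alone made up 1242 to 2103 CPM of this sum. The sum also adds members that were lower in all libraries labelled 4-OHT (*Smoc2*, *Slc14a1*, *Rgmb*) to members that were higher (*Igfbp4*, *Aqp4*). Its overlap therefore does not speak for each member. The summed level of 10 enterocyte markers was 1431 to 1944 CPM with EtOH and 2141 to 5132 CPM with 4-OHT. All 10 had a positive log2 fold change at day 6, where 51.8% of all genes tested had a negative one. By edgeR 7 passed as higher, against 2.27% of all genes. Among them were the apolipoprotein gene *Apoa1* (3.25, adjusted p 1e-04) and the keratin gene *Krt20* (2.65, adjusted p 1e-04). DESeq2 also called 7 of the list higher in day 6 than in day 4 libraries, where it called 168 of 14060 genes as higher. The 6 Paneth cell markers summed to 396 to 2801 CPM with EtOH and 1652 to 4911 CPM with 4-OHT, and overlapped. Of these, 0 passed at day 6 by edgeR or DESeq2, with 3 at an unadjusted p under 0.05, and all 6 had a positive log2 fold change. Over both days DESeq2 called 1 of them as higher, where it called 663 of 14060 genes as higher. The 6 tuft cell markers summed to 9.76 to 31.2 CPM with EtOH and 6.73 to 9.46 CPM with 4-OHT. All 4 tested at day 6 had a negative log2 fold change. By edgeR 1 of the 4 tested passed as lower (3 with DESeq2), against 0.235% of all genes. This was *Dclk1*, a kinase gene (−2.24, adjusted p 0.0388), and *Il25* was at 0 in every library. The goblet (2047 to 3463 and 2432.6 to 2819 CPM) and enteroendocrine sums (56.1 to 425 and 267 to 683 CPM) overlapped. Of the 6 goblet markers, 3 had a positive log2 fold change at day 6, and 1 of these passed as higher by edgeR, against 2.27% of all genes. It was *Clca1*, a secreted protein of mucus (1.24, adjusted p 0.021). Of the 6 enteroendocrine markers 0 passed at day 6 by edgeR or DESeq2, with 1 at an unadjusted p under 0.05, and 5 had a positive log2 fold change. Markers outside the epithelium were low in all libraries. The 5 immune genes summed to 4.4 to 8.48 CPM, most of it from *Cd68* (82 to 152 counts per library), the 1 of them abundant enough to test. The sums were close to 0 for 5 mesenchymal genes (0.373 to 1.22 CPM) and 3 endothelial genes (0.232 to 0.976 CPM). The part of the enterocyte, Paneth and tuft cell markers in the stem cell marker differences was not tested.

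**Figure D5:**
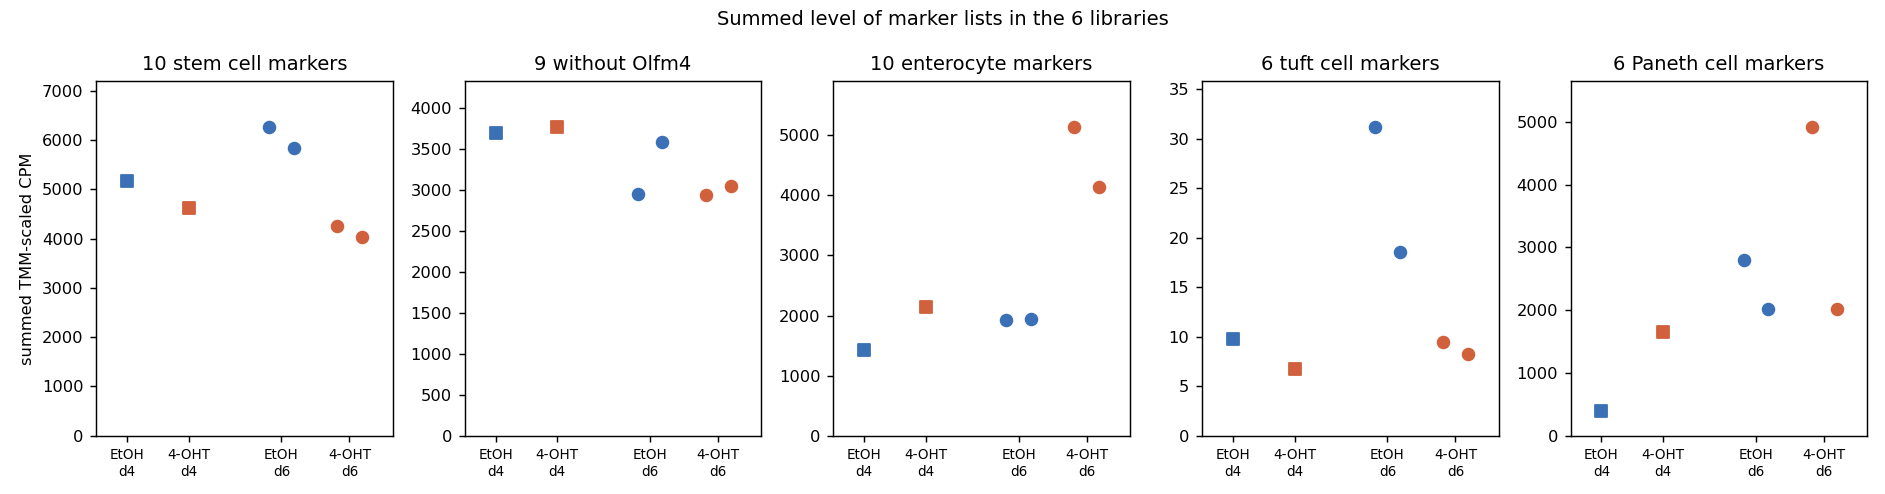
Summed TMM-scaled CPM of the 10 stem cell markers, of the 9 without *Olfm4*, and of the enterocyte, tuft and Paneth cell marker lists by treatment and day (d4, d6), 1 point per library (blue EtOH, orange labelled 4-OHT, circles day 6, squares day 4). The stem cell sum lies at 4033 to 4632 CPM in the libraries labelled 4-OHT, below the 5177 to 6262 CPM of EtOH, but without *Olfm4* the treatments overlap (2941 to 3766 and 2954 to 3694 CPM), and the enterocyte sum lies above that of EtOH. *Slc12a2* is the largest part of the sum without *Olfm4*, which adds members that were lower to members that were higher.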

How the data were processed

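Libraries were made from bead-purified poly-A RNA with random hexamer priming, per the labels' protocols. STAR and the genome build mm39 were used, per the submitters' processing notes; the annotation release, strand setting and STAR version are not given in the sources used here. For each library the authors deposited raw read counts by gene as whole numbers, together with 4 summary lines (unmapped, multimapping, without a feature, ambiguous). These lines held 19.3% to 21.0% of all entries at day 6 and 25.0% to 26.7% at day 4, and stayed out of library sizes and tests. Symbols, positions and exon lengths came from GENCODE M39 (GRCm39), which matched 56323 of 56884 identifiers. Before TMM scaling, 1 CPM stands for 14.3 to 21.5 reads in these libraries.

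Counts were tested with edgeR 4.0.16 in R 4.3.3 (TMM, filterByExpr by treatment with a minimum count of 10, glmQLFit without the legacy option, glmQLFTest), and p-values were adjusted by Benjamini-Hochberg over all genes tested with a threshold of 0.05. Standard errors were derived from the F statistic. CPM were scaled over all 6 libraries, and log2 CPM used a prior count of 2. Day 4 intervals are exact binomial (Clopper-Pearson). Scripts were checked on simulated counts. All 10 members are named, with up to 5 of the largest changes per other list among genes that passed at day 6 and the 3 genes nearest in pattern to *Lgr5* and *Olfm4*. The other genes named are the rest of the short reserve stem cell list, *Ythdf2*, *Il25*, *Cd68*, genes that overlap a member, and genes marked as chosen after their values were seen. The members and lists were chosen with earlier results of these data known. Alternatives were DESeq2 1.42.0, its size factors in edgeR, all genes without a filter, a replicate block, all 6 libraries in 4 groups, no day term, the longest transcript as length, a prior count of 0.5, each library left out in turn and, chosen after seeing the data, edgeR's legacy quasi-likelihood.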

Additional observations from a re-analysis of the deposited data

How the results depend on the processing

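At day 6, 2 members and 353 genes were called. Leaving out 1 library in turn gave 0 to 2 members and 145 to 456 genes, with the lowest values without EtOH replicate 1. DESeq2 called 4 members and 502 genes. The labels do not say that replicate numbers pair the libraries, and with 2 pairs the deviations of same-numbered libraries had a correlation of 0.27 across genes. With a replicate block, 4 members (*Rgmb* and *Igfbp4* in addition) and 839 genes were called. Over both days, 4 members and 617 genes were called, and 6 members and 857 genes with DESeq2. The range was 1 to 4 members and 358 to 676 genes when each library was left out, where leaving out a day 4 library repeats the day 6 comparison. No day term gave 1 member and 361 genes, and the legacy quasi-likelihood gave 2 members. The interaction called 0 genes, 6 with DESeq2 and 0 to 28 with a day 6 library left out, and it could not be fitted without a day 4 library. The day comparison called 79 genes, 182 without a filter, 318 with DESeq2 (1 member) and 15 to 490 with a library left out. Directions turned for *Ascl2* at day 6, to −0.37 without EtOH replicate 2 and −0.01 without 4-OHT replicate 1, over a range of −0.37 to 0.95 with each library left out. They turned for *Slc12a2* without EtOH replicate 2, to 0.26 at day 6 (range −0.39 to 0.26) and 0.18 over both days (range −0.19 to 0.18), and to 0.03 over both days without 4-OHT replicate 1 of day 6. The other 8 members kept their direction at day 6 under all 10 alternatives and over both days under all 11. The cause of these changes was not tested. Depth limits *Slc14a1*, whose lowest count was 9.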
